A study of Mus musculus with 7 samples.

Results

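The 35 genes described here encode the contractile machinery of smooth muscle, together with the receptors, channels and second messenger enzymes that start or stop its contraction. They were chosen by name from this pathway, and all 35 were found among the 16019 genes in the files. The files hold RNA-seq of 7 prostate samples, each from mice in which experimental autoimmune prostatitis (EAP) had been set up, an inflammation of the gland that follows immunisation. The LIT927 group held 4 libraries, numbered replicates 1 to 4, from mice injected intraperitoneally with LIT927, a small-molecule ligand of CXCL12 that keeps this chemokine from its receptors, at 25 mg/kg per day for 14 days. The vehicle group held 3 libraries, numbered replicates 1, 3 and 4, from mice injected over the same 14 days with the solvent methyl-β-cyclodextrin. All mice of both groups had EAP, and prostate without EAP was not analysed here. The labels give no strain, age or prostate lobe and do not say whether a library came from 1 mouse or from several, so the tests weigh differences against a spread between libraries that could be partly technical.

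Prostate stroma is rich in smooth muscle, which squeezes secretion out of the glands. Contraction starts when noradrenaline or acetylcholine acts on receptors of the cell, calcium enters and is released inside it, and myosin light chain kinase phosphorylates the regulatory light chain of myosin. Nitric oxide opposes this through soluble guanylate cyclase, cGMP and its kinase. Myocardin, with serum response factor, switches on many of the contractile genes through a short DNA element, the CArG box.

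The promoters of members were searched for that element. The CArG box is 10 bases long, with CC and GG on either side of 6 bases that are each A or T. It reads the same way on both strands, so 1 search covers both. RefSeq promoter windows (build GRCm38.p6, the assembly of mm10), which run from 250 bases before a transcription start to 50 bases after it, were matched by symbol for 30 of the 35 members, with 38 windows in all. Actg2, Adra1a, Myh11, Myocd and Tagln were not matched. By gene, 3 of the 30 members (Myl9, Vcl and Ldb3) had a CArG box, against 1.81% of all 27025 genes with a window, and 9 of the 30 had a match with 1 G or C allowed in the core, against 11.3% of genes. By window, the counts were 4 of 38 (10.5%), against 1.63% of all 32851 windows, and 12 of 38 (31.6%), against 9.98%. Windows of 1 gene can overlap, and both Ldb3 windows held the same box. Promoters of 3 genes, chosen after their values were seen, are shown because the genes differed in how they varied with the rest: Acta2 and Myl9 followed Myh11 closely across the libraries, and Vcl did not. Capitals mark the CArG boxes, with or without 1 G or C in the core.
Acta2, chr19:34255324-34255623, minus strand: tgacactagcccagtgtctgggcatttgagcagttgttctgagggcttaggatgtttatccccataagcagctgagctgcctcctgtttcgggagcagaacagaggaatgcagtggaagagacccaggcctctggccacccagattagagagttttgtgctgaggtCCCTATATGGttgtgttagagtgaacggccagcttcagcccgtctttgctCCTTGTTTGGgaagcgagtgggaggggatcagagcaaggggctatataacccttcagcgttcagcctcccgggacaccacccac
Myl9, chr2:156775214-156775513, plus strand: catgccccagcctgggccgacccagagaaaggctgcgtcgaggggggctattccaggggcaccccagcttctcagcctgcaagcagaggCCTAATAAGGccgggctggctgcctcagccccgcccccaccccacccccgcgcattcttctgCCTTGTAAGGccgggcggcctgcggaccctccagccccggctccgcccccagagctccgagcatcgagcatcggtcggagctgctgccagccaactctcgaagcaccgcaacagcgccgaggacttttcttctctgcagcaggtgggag
Vcl, chr14:20929148-20929447, plus strand: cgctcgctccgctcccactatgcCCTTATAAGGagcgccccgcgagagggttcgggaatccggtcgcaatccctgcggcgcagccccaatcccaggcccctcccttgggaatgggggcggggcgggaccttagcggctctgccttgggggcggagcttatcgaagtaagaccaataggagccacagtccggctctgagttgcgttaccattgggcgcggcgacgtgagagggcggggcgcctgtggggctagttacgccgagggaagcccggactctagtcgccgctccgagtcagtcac
The boxes of Acta2 began 84 and 34 bases before the start site, and each had 1 G or C in its core. In the Myl9 window the box 161 bases before the start had a core of A and T throughout, and the one 99 bases before it had 1 G. The box of Vcl, 227 bases before the start, also had a core of A and T throughout. A match is a description of these letters, and the files hold no measurement of binding. Members were chosen by name as smooth muscle genes, and the part of the element in their variation between libraries was not tested.

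Levels are given in FPKM, the fragments of a gene scaled by its length and by the depth of the library, so values of different genes can be set side by side. Whole fragments could be recovered from them, and summed to 32043632 to 34804566 per LIT927 library and 33617271 to 35257990 per vehicle library, so depth was even. Tissue make-up was not. Markers of seminal vesicle, a neighbouring gland, summed to 142409 to 301496 FPKM in LIT927 libraries and 51022 to 563785 FPKM in vehicle libraries, above the sums of the prostate luminal markers (6159 to 167274 FPKM and 9846 to 76526 FPKM). Single seminal vesicle markers did not vary alike. Svs2, the most abundant, had 49765 to 159456 FPKM in LIT927 libraries and 26188 to 104622 FPKM in vehicle libraries. Svs1 had 123, 38.8, 11062.5 and 243 FPKM in LIT927 replicates 1 to 4, against 80.9, 11985 and 25355.5 FPKM in vehicle replicates 1, 3 and 4. The most abundant prostate luminal markers did not vary alike either. Sbp had 8.0, 5316, 114916 and 303 FPKM in LIT927 replicates 1 to 4, against 339, 53139 and 232 FPKM in vehicle replicates 1, 3 and 4. Spink1 was likewise highest in LIT927 replicate 3 (50277 FPKM) but, unlike Sbp, was also high in vehicle replicate 4 (7049 FPKM). Pbsn (probasin) had 3823, 129, 233 and 8963 FPKM, against 11311, 3096 and 1283 FPKM, and Tgm4 was lowest of all in LIT927 replicate 3 (26 FPKM). Upk1a, a uroplakin of the bladder and urethral lining, was high in LIT927 replicate 3 (253 FPKM) and vehicle replicate 3 (172 FPKM) and at most 10.1 FPKM elsewhere. Of the vas deferens (sperm duct) markers, Akr1b7 had 17099, 8867, 15.9 and 5998 FPKM, against 8408, 84.5 and 1597 FPKM. Crisp1 was likewise highest in LIT927 replicate 1 (2508 FPKM) and lowest in LIT927 replicate 3 (2.62 FPKM). Spinkl, placed in the same list, did not follow them. It had 10741 FPKM in LIT927 replicate 3 and was highest in vehicle replicate 4 (11703 FPKM), as Svs1 was. Its level is therefore not read as vas deferens RNA. The part of vas deferens tissue in the levels of the members was not tested.

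The amount of smooth muscle RNA differed more between libraries of 1 group than between the groups. The 35 genes took 2.13%, 1.45%, 0.341% and 2.66% of the recovered fragments in LIT927 replicates 1 to 4, against 4.27%, 1.64% and 1.27% in vehicle replicates 1, 3 and 4. Vehicle replicate 1 was thus the highest and LIT927 replicate 3 the lowest, and the other 5 libraries overlapped between the groups. In such bulk tissue, fewer muscle cells, less of these RNAs per cell and uneven inclusion of neighbouring muscular tissue cannot be told apart. The same order ran through the single genes: 32 of 35 (91.4%) were highest in vehicle replicate 1, as were 47.0% of all genes, and 32 of 35 (91.4%) were lowest in LIT927 replicate 3, as were 31.4% of the 14532 genes above 0 in every library. Second place after vehicle replicate 1 was held by LIT927 replicate 4 for 26 of the 35.

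**Figure D1:**
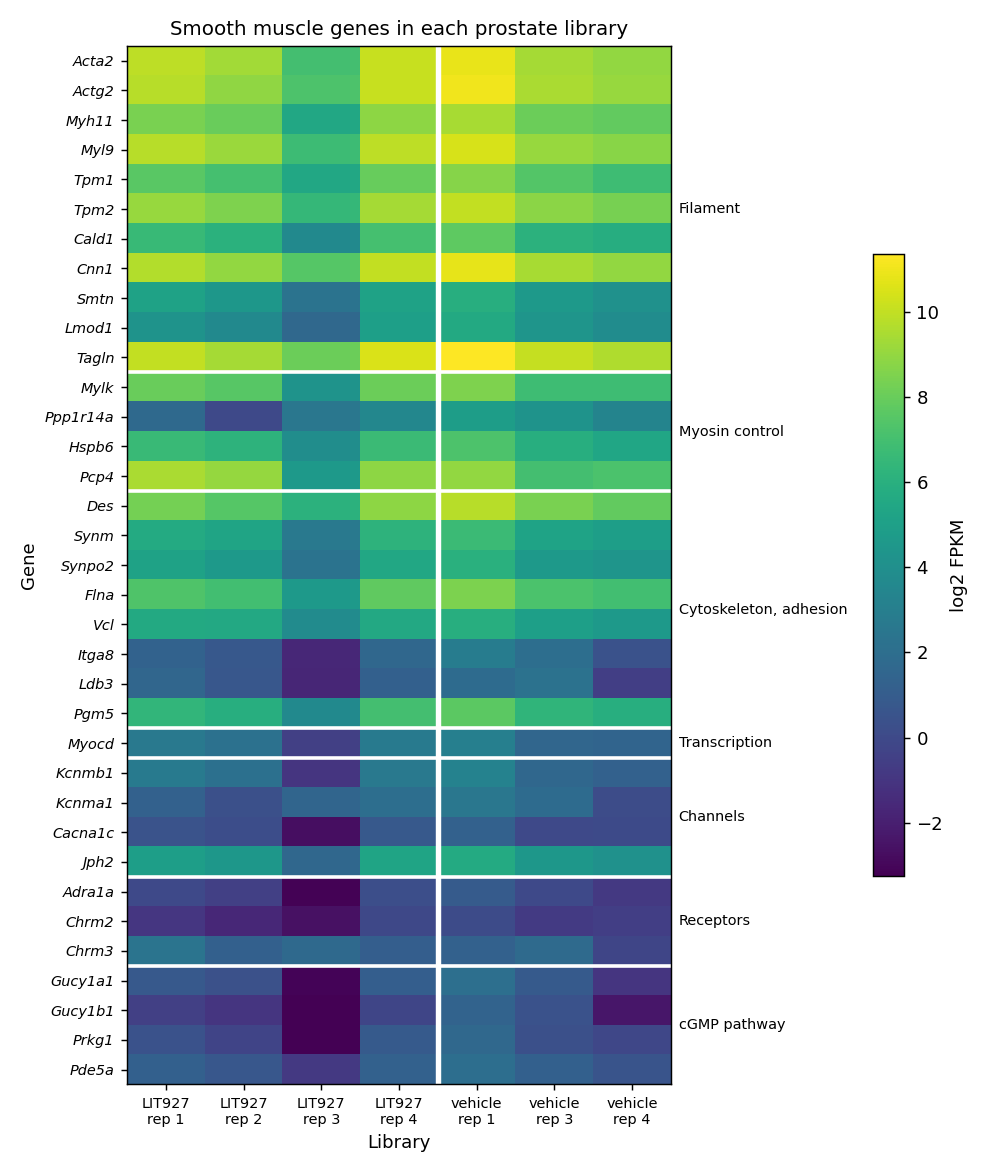
Level of each of the 35 genes (rows, by role) in each library (columns, LIT927 left of vehicle), in log2 FPKM by colour. The column of LIT927 replicate 3 is the darkest for 32 genes and that of vehicle replicate 1 the brightest for 32, while Ppp1r14a, Chrm3, Kcnma1, Ldb3 and Pcp4 break the pattern.

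Thick and thin filament genes had lower means with LIT927 in 11 of 11 cases, but in none did the groups separate. Acta2, the smooth muscle alpha-actin of vessels and stroma (mm10 chromosome 19, 34241090 to 34255590, minus strand), had 952, 631, 129 and 1093 FPKM in LIT927 replicates 1 to 4, against 1843, 671 and 500.5 FPKM in vehicle replicates 1, 3 and 4. Actg2, the gamma-actin of visceral smooth muscle (chromosome 6, 83512905 to 83536265, minus strand), had 866, 478, 157 and 1093 FPKM with LIT927, against 2101, 726 and 545 FPKM with vehicle. In both actins LIT927 replicate 4 lay above vehicle replicates 3 and 4, and LIT927 replicate 3 lay below every vehicle library. The difference in log2(FPKM + 1), LIT927 minus vehicle, was -0.66 (SE 0.84; 95% interval -2.60 to 1.29) for Acta2 and -0.86 (SE 0.78; -2.69 to 0.96) for Actg2, neither past the threshold (limma adjusted p = 0.998 for both). Reads from the nearly identical coding parts of actin genes may be shared out between them or lost in counting, and how the authors treated such reads is not given in the sources used here.

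Myh11, the smooth muscle myosin heavy chain and the most specific marker of this cell type (chromosome 16, 14194535 to 14291372, minus strand), had 347, 258, 45.8 and 471 FPKM with LIT927, against 700, 268 and 231 FPKM with vehicle. Its difference was -0.74 (SE 0.82; -2.64 to 1.16). The regulatory light chain gene Myl9, whose product is the target of the kinase, averaged 626 ± 380 FPKM with LIT927 and 798 ± 535 FPKM with vehicle (SD, n = 4 and 3). Tagln, the actin-binding protein transgelin and the most abundant member, had 1045, 670, 268 and 1474 FPKM with LIT927, against 2604, 1063 and 786 FPKM with vehicle. Of its exonic bases 5.43% overlap Pcsk7 (11.9 to 71.8 FPKM) and 62.4% overlap Gm48529, both on the other strand, and the strand setting of the counting is not given in the sources used here. Cnn1 (calponin, an inhibitor of the myosin ATPase) averaged 624 ± 362 against 995 ± 704 FPKM. The tropomyosins Tpm1 and Tpm2 averaged 154 ± 86.5 against 233 ± 158 FPKM and 417 ± 253 against 604 ± 379 FPKM. Cald1 (caldesmon, a brake on actin and myosin), Smtn (smoothelin, found in contractile smooth muscle) and Lmod1 (leiomodin, which starts actin filaments) averaged 77.3, 24.9 and 16.6 FPKM with LIT927, against 114, 33.9 and 28.4 FPKM with vehicle. The median difference over the filament genes was -0.69, with a range of -0.89 to -0.54.

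The genes that set myosin phosphorylation did not move as 1 block. Mylk, the myosin light chain kinase, had 261, 187, 19.4 and 273 FPKM with LIT927, against 363, 113 and 112 FPKM with vehicle. LIT927 replicates 1, 2 and 4 were above vehicle replicates 3 and 4, and the difference was -0.38 (SE 0.95). Ppp1r14a, or CPI-17, inhibits myosin phosphatase and so prolongs contraction (chromosome 7, 29289308 to 29293801, plus strand). It had 3.34, 0.985, 5.73 and 11.5 FPKM with LIT927, against 29.7, 19.3 and 10.1 FPKM with vehicle. Only LIT927 replicate 4 reached above the lowest vehicle library, and LIT927 replicate 2 was lowest, not LIT927 replicate 3. The difference of -1.87 (SE 0.63; 95% interval -3.34 to -0.41) was the largest of the 35 and the only one whose interval left out 0, but it did not pass after adjustment over all genes (limma adjusted p = 0.998, unadjusted p = 0.0186). These levels rest on 156, 46, 263 and 574 recovered fragments in LIT927 replicates 1 to 4 and on 1428, 935 and 508 in vehicle replicates 1, 3 and 4. Pcp4, a small protein that modulates calmodulin, had 733, 519, 24.1 and 460 FPKM with LIT927, against 511, 126 and 151 FPKM with vehicle. It was highest in LIT927 replicate 1, and with LIT927 replicate 3 at the bottom the groups overlapped over the whole vehicle range (difference 0.26, SE 1.18). Its exons share 243 bases with Igsf5 on the same strand, a gene at 8.2 to 14.5 FPKM. Hspb6, a small heat shock protein that is phosphorylated when smooth muscle relaxes, averaged 73.4 ± 41.4 against 85.2 ± 59.7 FPKM.

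Genes of the muscle cytoskeleton and its anchors had lower mean log2 values with LIT927 in 8 of 8 cases. Des, the muscle intermediate filament protein desmin, had 316, 183, 68.8 and 475 FPKM with LIT927, against 873, 344 and 229 FPKM with vehicle, a difference of -0.97 (SE 0.73). Synm and Synpo2, partners of desmin and of the actin bundles, averaged 42.8 and 27.5 FPKM with LIT927, against 57.0 and 36.5 FPKM with vehicle. Flna (filamin A, an actin crosslinker) and Pgm5 (aciculin, a protein of adherens junctions) averaged 133 and 71.0 FPKM, against 210 and 114 FPKM. Itga8, the alpha subunit of an integrin of stromal and smooth muscle cells, had 2.50, 1.74, 0.326 and 3.12 FPKM with LIT927, against 7.26, 4.01 and 1.34 FPKM with vehicle. In contrast to desmin, Vcl (vinculin, which ties actin to adhesions) was nearly level: 48.3, 47.6, 13.9 and 46.3 FPKM with LIT927, against 59.4, 31.6 and 25.2 FPKM with vehicle. Its difference was -0.05 (SE 0.50; -1.20 to 1.11), while its mean FPKM was 39.1 ± 16.8 with LIT927 and 38.8 ± 18.2 with vehicle. Of its exonic bases 25.5% overlap Ap3m1 on the other strand, a gene at 10.8 to 17.9 FPKM.

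Ldb3 (cypher) is a Z-disc protein best known from striated muscle. It had 2.96, 1.66, 0.311 and 2.31 FPKM with LIT927, against 3.63, 4.84 and 0.688 FPKM with vehicle, and was the only member highest in vehicle replicate 3. That library also carried genes of skeletal muscle fibres. The most abundant gene of the skeletal muscle list, Acta1, was highest in vehicle replicate 1 (863 FPKM, against 576 FPKM in vehicle replicate 3), whereas Tnnc2 and Ckm were highest in vehicle replicate 3 (159 and 207 FPKM). Genes closer to absent elsewhere were chosen after their values were seen. Myh4, the myosin of fast fibres, was at 35.1 FPKM there and at most 0.480 FPKM elsewhere. Tnnt3, a fast troponin T, was at 147 FPKM there and at most 0.981 FPKM elsewhere. All 25 skeletal muscle genes had lower means with LIT927 (range of their summed level 104 to 717 FPKM in LIT927 libraries and 345 to 1714 FPKM in vehicle libraries). In every library but vehicle replicate 3, Acta1 was most of this sum (89.1 FPKM in LIT927 replicate 3). Outside that library the sum therefore mostly reports Acta1 and not fibre genes such as Myh4. For Myh4 and Tnnt3 the vehicle mean rested on vehicle replicate 3, unlike for Acta1. Myh4 had 0.0639 and 0.0188 FPKM in vehicle replicates 1 and 4, below the 0.480 FPKM of LIT927 replicate 4. The part of the skeletal muscle genes in the level of Ldb3 was not tested.

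Myocd encodes myocardin, the coactivator of the contractile genes. It had 6.39, 4.51, 0.71 and 6.52 FPKM with LIT927, against 8.34, 2.95 and 2.71 FPKM with vehicle. The difference was -0.11 (SE 0.60; -1.49 to 1.28), and 3 LIT927 libraries lay between the vehicle libraries.

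Ion channel genes were expressed far below the filament genes, and all 4 channel and calcium-handling members had lower mean log2 values with LIT927. Kcnma1 and Kcnmb1, the pore and the smooth muscle beta subunit of the BK potassium channel that dampens contraction, behaved differently from each other. Kcnmb1 had 6.47, 4.40, 0.499 and 6.36 FPKM with LIT927, against 9.27, 3.13 and 2.43 FPKM with vehicle, in step with the filaments. By contrast Kcnma1 had 2.41, 1.26, 2.85 and 4.02 FPKM with LIT927, against 5.71, 3.64 and 1.10 FPKM with vehicle, and was not low in LIT927 replicate 3. Cacna1c, the pore of the L-type calcium channel, averaged 1.13 ± 0.70 against 1.48 ± 0.85 FPKM. Jph2 (junctophilin, which ties the plasma membrane to calcium stores) averaged 23.7 ± 15.4 against 30.3 ± 18.1 FPKM.

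The adrenergic and muscarinic receptors among the members had low transcript levels. This does not hold for every receptor gene of smooth muscle signalling. P2rx1, a receptor gene outside the members, had 71.6, 52.0, 1.51 and 53.4 FPKM with LIT927, against 57.5, 13.9 and 18.2 FPKM with vehicle. Adra1a, the alpha-1A adrenoceptor that carries noradrenergic contraction of the prostate, had 0.994, 0.724, 0.111 and 1.18 FPKM with LIT927, against 1.91, 0.984 and 0.555 FPKM with vehicle. Its difference was -0.29 (SE 0.29). Chrm2, the muscarinic M2 receptor, had 0.523, 0.327, 0.166 and 0.954 FPKM with LIT927, against 1.07, 0.598 and 0.689 FPKM with vehicle, a difference of -0.28 (SE 0.19; -0.71 to 0.16). The lowest of these rests on 34 fragments. Chrm3, the M3 receptor, which both smooth muscle and glandular epithelium use, had 5.09, 2.37, 3.30 and 2.14 FPKM with LIT927, against 2.43, 3.49 and 0.864 FPKM with vehicle. It did not follow the muscle genes, being above the median library in LIT927 replicate 3, and its difference of 0.41 (SE 0.38; -0.47 to 1.29) was the largest upward one among the members. With 0.1 in place of 1 FPKM added, the differences were -0.68 for Adra1a, -0.72 for Chrm2 and 0.61 for Chrm3, none called.

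All 4 members of the nitric oxide and cGMP branch had lower means with LIT927. Gucy1a1 and Gucy1b1 encode the subunits of soluble guanylate cyclase, the receptor for nitric oxide. Gucy1b1 had 0.725, 0.508, 0.105 and 0.882 FPKM with LIT927, against 2.66, 1.34 and 0.192 FPKM with vehicle. Gucy1a1 had 1.81, 1.29, 0.116 and 2.15 FPKM with LIT927, against 4.32, 1.87 and 0.496 FPKM with vehicle. For both subunits vehicle replicate 4 lay below LIT927 replicates 1, 2 and 4, with 22 fragments of Gucy1b1 there and 11 in LIT927 replicate 3. Prkg1, the cGMP-dependent kinase, had 1.35, 0.831, 0.109 and 1.85 FPKM with LIT927, against 3.17, 1.24 and 0.891 FPKM with vehicle. Pde5a, the phosphodiesterase that breaks down cGMP and is the target of sildenafil, had 2.38, 1.63, 0.570 and 2.43 FPKM with LIT927, against 4.04, 2.38 and 1.45 FPKM with vehicle. The 4 differences lay between -0.51 and -0.38, each with an interval that spanned 0. Adding 1 FPKM shrinks the differences of genes at such low levels. With 0.1 FPKM added instead, they were -0.70 for Gucy1a1, -0.90 for Gucy1b1, -0.92 for Prkg1 and -0.61 for Pde5a, none called. Their size is thus not comparable with that of the filament genes.

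Over all 35 members, 33 had a lower mean log2 value with LIT927, as did 44.5% of the 16019 genes, and the median difference was -0.55, against 0.02 over all genes. None was called. At an adjusted p under 0.05, 0% of all genes were called lower and 0% higher. At an unadjusted p under 0.05, 1 member, Ppp1r14a, was lower and 0 were higher, while 2.96% of all genes were lower and 0.718% higher. In no member did every LIT927 library lie below every vehicle library, or above it, as 2.12% and 1.08% of all genes did. The median of the members rested on 2 libraries: it was -0.07 without LIT927 replicate 3, with 20 of 35 members lower, and -0.11 without vehicle replicate 1, with 25 lower.

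**Figure D2:**
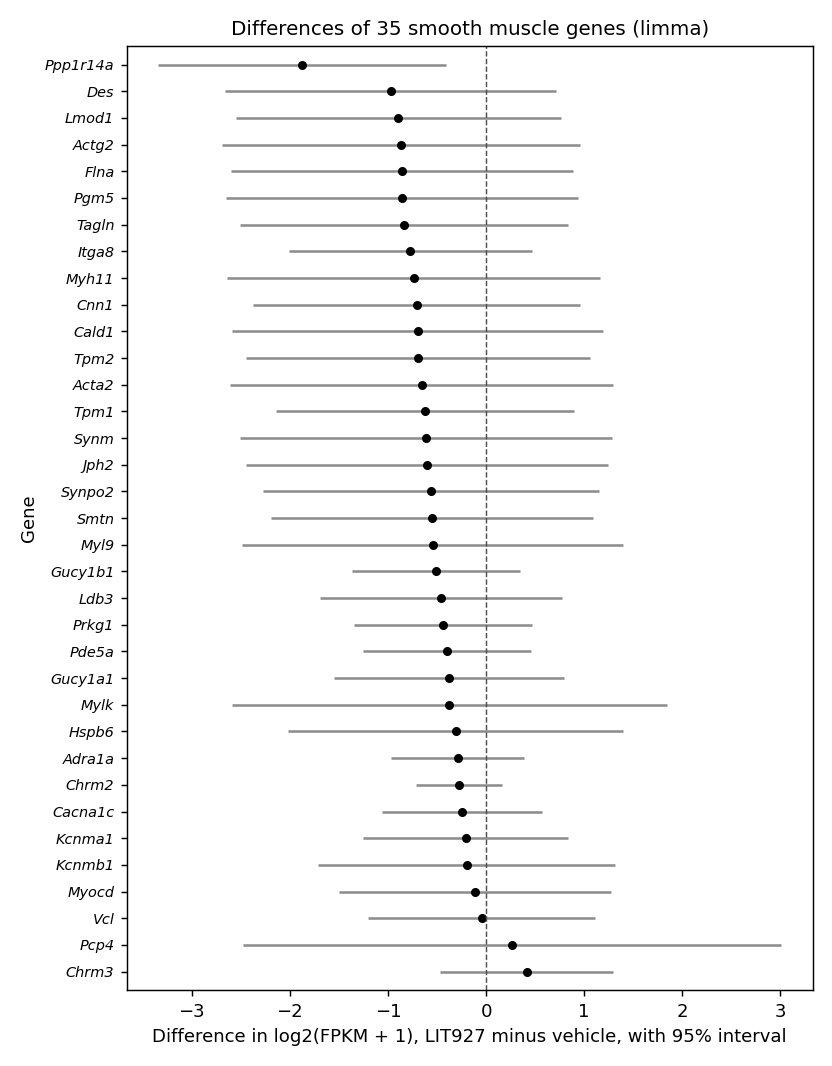
Difference of each of the 35 genes in log2(FPKM + 1), LIT927 minus vehicle, as a point with its 95% limma interval (horizontal axis). The interval includes 0 for 34 genes and leaves it out for Ppp1r14a (-3.34 to -0.41).

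Other tissue genes varied along with these. The 14 endothelial markers summed to 12.2 to 76.3 FPKM in LIT927 libraries and 43.4 to 163 FPKM in vehicle libraries, and 14 of 14 had lower means with LIT927. Fibroblast markers summed to 133 to 485 FPKM and 209 to 963 FPKM, with 14 of 14 lower. Markers of pericytes and vascular mural cells, which share the wall of vessels with smooth muscle, summed to 10.7 to 47.0 FPKM and 18.5 to 82.4 FPKM, with 10 of 12 lower. All 3 sums were lowest in LIT927 replicate 3 and highest in vehicle replicate 1, as the muscle genes were. Leukocyte markers summed to 67.9 to 195 FPKM and 188 to 564 FPKM, with 7 of 8 lower. Their sum was also lowest in LIT927 replicate 3 and highest in vehicle replicate 1, with 541 FPKM in vehicle replicate 4. At an unadjusted limma p under 0.05, 7 of the 8 were lower, against 2.96% of all genes, and 0 were called. The part of these cells in the differences of the members was not tested.

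**Figure D3:**
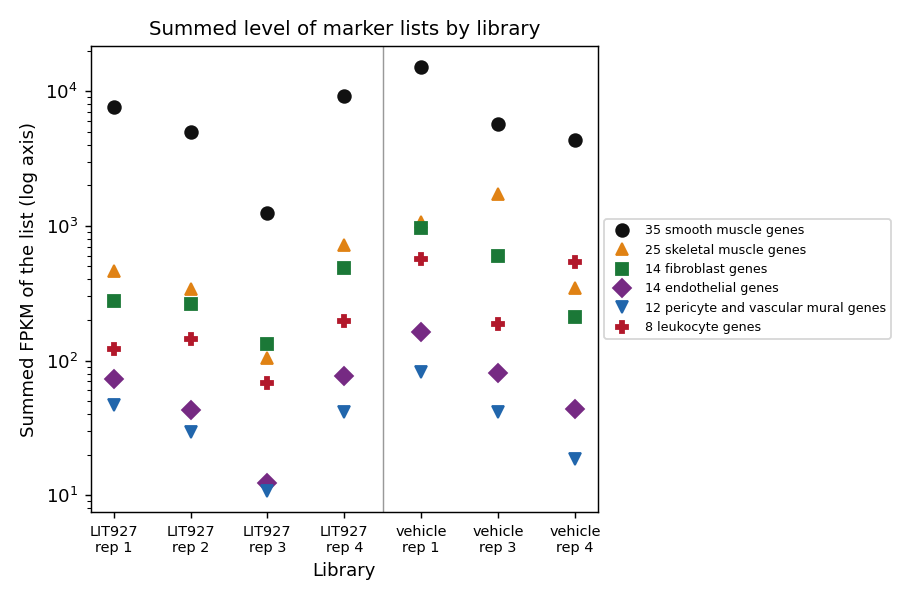
Summed FPKM of 6 gene lists (vertical log axis) in each library, LIT927 left of vehicle. Smooth muscle, fibroblast, endothelial, mural and leukocyte sums are all lowest in LIT927 replicate 3 and highest in vehicle replicate 1. The skeletal muscle sum is also lowest in LIT927 replicate 3 (104 FPKM) but highest in vehicle replicate 3 (1714 FPKM). In every library but vehicle replicate 3 it is mostly Acta1.

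Levels were also expressed as a share of Myh11 in the same library, which removes any factor common to all genes of that library. Myh11 itself varied 15.3-fold over the 7 libraries. Of the other 34 members, 19 (55.9%) kept their level relative to Myh11 within 2-fold over all libraries, as 2.25% of all other genes above 0 in every library did. The endothelial, fibroblast and mural lists, whose sums had the same lowest and highest library, were not compared separately on this scale. A narrow range is thus not shown to be particular to smooth muscle genes. Another 9 stayed between 1 and 2 log2 units and 6 went beyond 2. Synm was the steadiest, at 15.0%, 15.1%, 13.6% and 15.7% of Myh11 with LIT927, against 14.8%, 13.9% and 13.3% with vehicle. Synpo2, Flna, Cald1, Pgm5, Acta2, Cacna1c, Jph2 and Myl9 also stayed within 0.27 to 0.43 log2 units. Cacna1c held this narrow range at under 1% of the level of Myh11, and Adra1a, at 0.241% to 0.287% with LIT927 and 0.241% to 0.367% with vehicle, kept within 0.61.

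The 6 widest were Pcp4, Gucy1b1, Ldb3, Kcnma1, Chrm3 and Ppp1r14a. Relative to Myh11, Ppp1r14a stood at 0.964%, 0.382%, 12.5% and 2.45% with LIT927, against 4.24%, 7.21% and 4.37% with vehicle. LIT927 replicate 3, the library with the lowest level of most members, was thus above all vehicle libraries, and the other 3 were below them. Chrm3 stood at 1.47%, 0.918%, 7.20% and 0.454%, against 0.348%, 1.30% and 0.375%. Kcnma1 was at 6.23% in LIT927 replicate 3 and at 0.478% to 1.36% in all other libraries. Pcp4 was at 212%, 201%, 52.5% and 97.8%, against 73.1%, 47.0% and 65.4%.

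**Figure D4:**
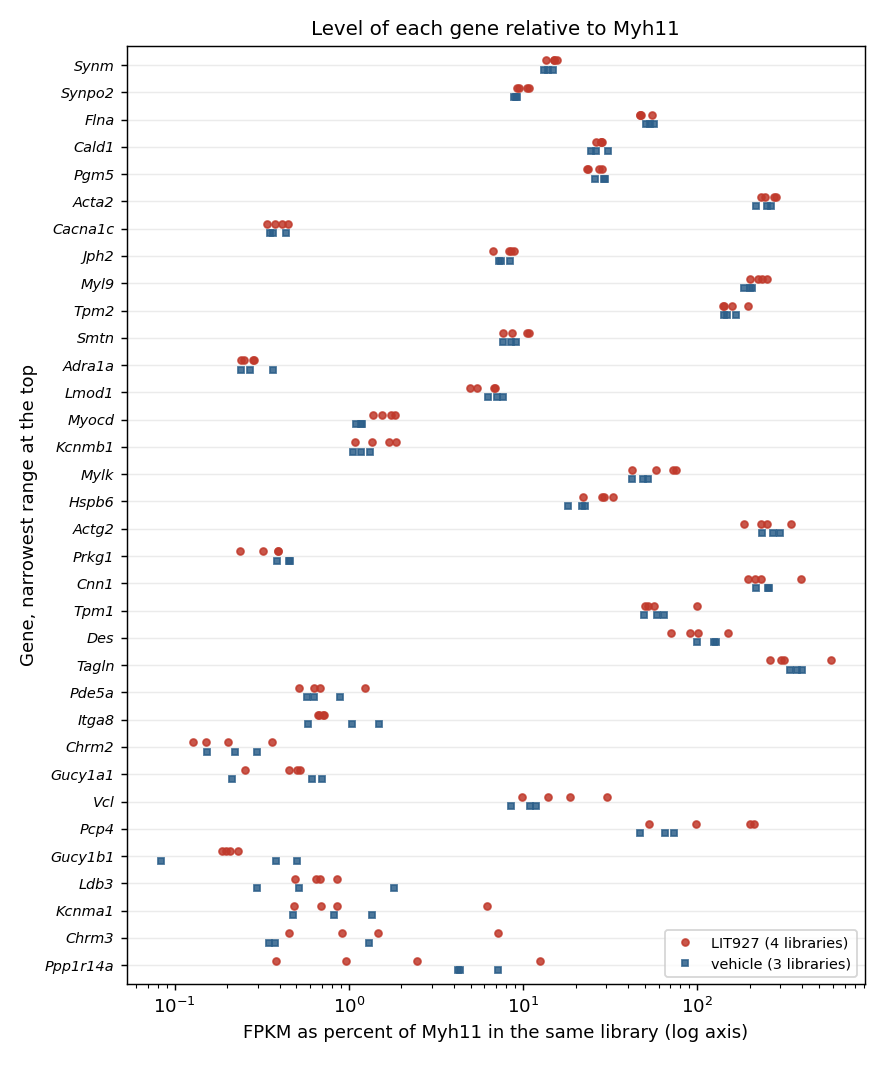
FPKM of 34 genes as a percentage of Myh11 in the same library (horizontal log axis), with LIT927 as red circles above vehicle as blue squares. Genes at the top, such as Synm and Synpo2, keep 1 level in all 7 libraries, whereas Ppp1r14a at the bottom spreads from 0.382% to 12.5%.

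In 1 of the 34 members the groups separated on this scale. Myocd was at 1.84%, 1.75%, 1.55% and 1.39% of Myh11 with LIT927, against 1.19%, 1.10% and 1.18% with vehicle. Every LIT927 library lay above every vehicle library for 2.59% of all genes relative to Myh11, and below for 0.674%, so that 1 of 34 members is near the background. With 0.1 FPKM added to both genes, as in all 12 ratios compared, its log2 ratio differed by 0.52, with an exact two-sided permutation p = 0.0571 and 0.60 after adjustment over the 12 ratios. The smallest p that the 35 divisions of 7 libraries into 4 and 3 can give is 0.0286.

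The other 11 ratios between members did not pass the threshold either, with exact permutation adjusted p of 0.60 to 0.943, which given that limit does not show that they are equal. The visceral to vascular actin ratio, Actg2 to Acta2, was 0.910, 0.759, 1.22 and 1.0 with LIT927, against 1.14, 1.08 and 1.09 with vehicle, and the log2 difference was -0.20. Mylk to Myh11 was 0.753, 0.726, 0.424 and 0.581, against 0.519, 0.422 and 0.485 (log2 difference 0.36). Between muscarinic receptors, Chrm2 to Chrm3 was 0.120, 0.173, 0.0783 and 0.471, against 0.461, 0.195 and 0.818 (-1.33). For guanylate cyclase, Gucy1a1 to Gucy1b1 was 2.32, 2.29, 1.05 and 2.29, against 1.60, 1.36 and 2.04 (0.20). The BK channel ratio, Kcnmb1 to Kcnma1, ran from 0.203 to 3.32 with LIT927 and from 0.862 to 2.10 with vehicle. Flna to Myh11 had the narrowest range of the ratios, 0.466 to 0.551 against 0.507 to 0.563.

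Further genes of smooth muscle signalling were taken from a list of 120 symbols, of which 117 are in the files. Means were lower with LIT927 for 92 and higher for 25, with a median difference of -0.18, and 0 were called. At an unadjusted p under 0.05, 4 were lower and 0 higher, near the 2.96% and 0.718% of all genes. Npr1, the receptor for atrial natriuretic peptide that also makes cGMP, had 2.27, 2.44, 0.746 and 2.98 FPKM with LIT927, against 4.43, 3.47 and 5.11 FPKM with vehicle. Its groups did not overlap, which held for 3 of the 117 genes and, in the same direction, for 2.12% of all genes (difference -0.83, SE 0.33, limma adjusted p = 0.998). Unlike the filament genes, Npr1 was highest in vehicle replicate 4. Gna12, an alpha subunit of a heterotrimeric G protein, had 14.6, 10.2, 8.30 and 17.5 FPKM with LIT927, against 23.1, 19.2 and 17.6 FPKM with vehicle, so that LIT927 replicate 4 and vehicle replicate 4 lay next to each other. Rock2, a kinase that restrains myosin phosphatase, averaged 7.36 ± 4.27 against 14.9 ± 8.2 FPKM. Rbpms2, an RNA-binding protein of smooth muscle, and the integrin subunits Itga5 and Itga7 averaged 3.97, 4.86 and 1.49 FPKM with LIT927, against 7.94, 12.3 and 3.11 FPKM with vehicle, with overlapping groups.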

How the data were processed

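RNA was sequenced from 7 mouse prostate samples, 4 given LIT927 and 3 given vehicle. The authors deposited FPKM values per gene; per the submitters' processing notes, fastp, HISAT2 and HTSeq were used with build mm10. For their versions, the annotation, the strand setting and shared reads, nothing is stated in the sources used here. FPKM divides out depth and gene length but not make-up, so a few very abundant secretory transcripts lower all other values of a library. The FPKM steps gave whole fragments, within 0.01, for 16018 of 16019 genes.

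Since the files hold FPKM and not counts, log2(FPKM + 1) of all 16019 genes was fitted with limma 3.58.1 (R 4.3.3), LIT927 minus vehicle, without a filter on low values or a covariate, with Benjamini-Hochberg adjustment over all genes and a threshold of 0.05. Ratios between members used an added 0.1 FPKM and an exact two-sided permutation test. Alternatives were an added 0.1, a filter at 1 FPKM in 3 libraries, median-of-ratios scaling, a replicate block, voom on recovered fragments, libraries left out, and, chosen after seeing the data, 1 FPKM added in ratios. Coordinates are those of mm10 from GENCODE M21. All 35 members are named. Of other pathway genes, the 6 with the smallest unadjusted p and a mean of at least 1 FPKM are named, as none passed the threshold, and of marker lists the most abundant genes where a list stood out in 1 library. Myh4, Tnnt3, Tgm4, Akr1b7, Crisp1, Spinkl, Svs1 and P2rx1 fall outside this rule and were picked with their values known. Members and lists were chosen with earlier results of these data known.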

Additional observations from a re-analysis of the deposited data

Results flagged for a closer look

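In 6 of the 47 sets of 4 LIT927 values examined (35 genes and 12 ratios), 1 library stood apart from the other 3 by Dixon's test, and in all 6 it was LIT927 replicate 3. Chance flags about 1 in 20 such sets, and the members vary together, so the 6 are not independent. In log2(FPKM + 1), this library had 4.35 for Mylk, 4.65 for Pcp4 and 3.90 for Vcl, each below the other 3 LIT927 libraries. Its log2 ratios, with 0.1 FPKM added, were -0.96 for Tpm1 to Tpm2, above the other 3, 0.0723 for Gucy1a1 to Gucy1b1, below them, and -0.86 for Flna to Myh11, above them. The guanylate cyclase ratio rests on 20 and 11 fragments there. The same library had 253 FPKM of Upk1a and 114916 FPKM of Sbp but 233 FPKM of Pbsn and 26 FPKM of Tgm4, and the part of its tissue make-up in these values was not tested.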

How the results depend on the processing

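No gene was called by limma under any of the 20 alternatives, voom on recovered fragments included, while 259 to 1939 genes had an unadjusted p under 0.05, against 589 as reported. Of 697 alternative values of member differences, 49 changed sign, in 17 members, and 0 passed the threshold (smallest adjusted p 0.388). The sign never changed in 18 members. The median over members was -0.68 with 0.1 FPKM added, -0.58 with the filter, which left 32 members, -0.61 with median-of-ratios scaling and -0.76 with voom. Leaving out 1 library gave medians of -0.92 (without vehicle replicate 4) to -0.07 (without LIT927 replicate 3) and 20 to 34 members lower. The cause of these shifts was not tested. Low counts limit Gucy1b1, Gucy1a1, Prkg1, Chrm2 and Adra1a, which had 11 to 56 fragments in LIT927 replicate 3, and all intervals cover 7 libraries.

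Leaving out 1 library moved the difference between -1.04 and 0.0278 for Acta2, -0.89 and 0.17 for Myl9, -1.08 and 0.00219 for Cald1, -0.91 and 0.0575 for Smtn, and -0.74 and 0.51 for Mylk. The range was -0.70 to 0.32 for Hspb6, -0.24 to 1.39 for Pcp4, -1.01 to 0.11 for Synm, -0.90 to 0.0822 for Synpo2, -0.30 to 0.38 for Vcl and -0.34 to 0.39 for Myocd. It was -0.50 to 0.34 for Kcnmb1, -0.68 to 0.16 for Kcnma1, -0.40 to 0.0247 for Cacna1c, -0.97 to 0.13 for Jph2 and -0.84 to 0.0744 for Gucy1a1. Among ratios it was -0.0645 to 0.11 for Tpm1 to Tpm2, -0.61 to 0.74 for Kcnmb1 to Kcnma1 and -0.0872 to 0.23 for Adra1a to Myh11.

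Without LIT927 replicate 3 and vehicle replicate 3, the libraries high in Upk1a, the difference was 0.00343 for Myl9, 0.23 for Mylk, 0.19 for Hspb6, 0.28 for Vcl, 0.22 for Ldb3, 0.19 for Myocd and 0.17 for Kcnmb1, and the log2 ratio differed by -0.0434 for Tpm1 to Tpm2 and 0.37 for Kcnmb1 to Kcnma1. With 1 FPKM added, Kcnmb1 to Kcnma1 differed by 0.0112. With median-of-ratios scaling and without LIT927 replicate 3, the difference was 0.34 for Mylk, 0.15 for Hspb6, 0.21 for Vcl, 0.26 for Myocd and 0.22 for Kcnmb1. Without vehicle replicate 1, so scaled, it was 0.0434 for Vcl, 0.0839 for Myocd, 0.0516 for Kcnmb1 and 0.0182 for Kcnma1. Pcp4, so scaled, was at -0.25 without LIT927 replicate 1, -0.14 without LIT927 replicate 2, -0.0165 without LIT927 replicate 4 and -0.25 without vehicle replicate 3, and Kcnma1 was at 0.00379 without LIT927 replicate 2.

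The replicate numbers do not pair the samples by the labels, and deviations of same-numbered libraries correlated at 0.58 (replicates 1), 0.76 (replicates 3) and -0.17 (replicates 4). Those of differently numbered libraries correlated at -0.71 (LIT927 replicate 1 with vehicle replicate 3) to 0.64 (LIT927 replicate 4 with vehicle replicate 1). With a replicate block, to which LIT927 replicate 2 adds nothing, Pcp4 was at -0.0726 and Kcnma1 at 0.00368, the median over members was -0.61, and no call changed.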
